A study of Homo sapiens with 5 samples.

Results

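The MYC and MAX network is a family of 10 genes here, MYC, MYCN, MYCL, MAX, MLX, MGA, MXD1, MXD4, MXI1 and MNT, taken by name out of 64439 annotated genes, of which 20162 were protein-coding. Their promoters were examined for binding of PHF8, a histone demethylase whose PHD finger recognizes the methyl mark of active promoters, in the established human melanoma line SKMEL-147. Crosslinked and sonicated chromatin of these cells was pulled down with an antibody to PHF8 in 3 replicates, named A, B1 and B2, and 2 input libraries, A and B, served as controls for peak calling. The labels give no treatment or genotype for these cells, and the input libraries are not analysed here on their own. All values therefore describe 1 cell line in 1 state, and no condition was compared with another. Whether the replicates came from separate cultures is not stated, so every SD and p-value below measures only the spread between these 3 libraries, which may be technical, and B1 and B2 share a letter.

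Proteins of this network carry a basic helix-loop-helix leucine zipper and bind DNA as pairs. MYC, MYCN and MYCL pair with MAX on the E-box CACGTG and raise transcription, while MXD1, MXD4, MXI1 and MNT compete for MAX and bring SIN3 corepressors to the same sites. MLX pairs with the glucose-responsive MondoA and ChREBP proteins as well as with some of the antagonists, and MGA, which holds a T-box beside its zipper, is a scaffold of a noncanonical Polycomb complex. MYC amplification and MYCN amplification are well known in cancer, the latter above all in neuroblastoma.

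The replicates held 20120 to 21506 peaks, with a median of 39 to 54 ChIP fragments at the summit and a weakest peak of 8 to 10 fragments. A promoter was the stretch of 1 kb on either side of any annotated transcription start site (TSS), and a gene was called bound when a peak overlapped such a window in all 3 replicates. Fold enrichment is the ratio of ChIP over background at the summit. Its scale differed between lists, since the median strongest promoter peak of the 16541 bound genes was at 32.4, 18.8 and 17.7 in A, B1 and B2. Strength is therefore also given as a percentile among bound genes of the same replicate and as log2 fold enrichment relative to that median. The strongest peak was taken in each replicate separately, so it could lie in different regions, as it did at MYC, MXD1 and MNT. Of marker genes of the melanocyte lineage, 3 of 7 were bound (MITF, SOX10 and PMEL), beside 60.2% of all protein-coding genes. Of 4 marker genes of keratinocytes, leukocytes and liver, 0 were bound. Among all these markers, only the 3 bound ones had a CpG-island-like start site. A peak does not measure expression, so these markers do not test the identity of the cells.

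PHF8 was present at 9 of the 10 network promoters in all 3 replicates, and MYCN was the gene without a peak. The share of all protein-coding genes that were bound was 60.2%, and among the 14591 protein-coding genes with a CpG-island-like TSS, which all 10 network genes have, it was 79.5%. The 9 bound genes therefore stood close to what the CpG-rich promoters of the genome showed as a whole. Strength separated them far more than presence did. The percentiles ran from 5.48 for MYC to 94.5 for MXD4, with a median of 28.1 beside 50.9 for all bound genes. Only MAX and MXD4 had a mean percentile above 50, and 4 of the 9 (MYC, MYCL, MGA and MNT) had one below 25. At a fold enrichment above 10, 6 of the 10 were bound, without MYC, MYCL and MGA, beside 49.6% of all protein-coding genes. The network held 32 promoter peaks in A, 27 in B1 and 25 in B2.

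The sequence under the peaks that carry these differences is shown first. MXD4 had the strongest peak of the network, and its summit lay upstream of the gene rather than at the start site. The sequence covers 300 bases centred on the summit, GRCh37 chr4:2264260-2264559, minus strand, with the GC box GGGCGG in capitals, and has a GC content of 74.0%.
MXD4 upstream summit: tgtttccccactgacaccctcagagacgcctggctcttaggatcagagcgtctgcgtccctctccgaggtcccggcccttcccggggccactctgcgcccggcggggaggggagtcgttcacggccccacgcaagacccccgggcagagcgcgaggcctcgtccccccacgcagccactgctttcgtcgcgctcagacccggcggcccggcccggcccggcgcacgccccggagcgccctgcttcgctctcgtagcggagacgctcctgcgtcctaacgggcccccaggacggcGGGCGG

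The MXD1 and MNT summits are shown because an E-box lies within 150 bp of each. The MXD1 sequence is GRCh37 chr2:70141417-70141716, plus strand, in an intron of a transcript that starts farther upstream and ahead of the canonical start site. The MNT sequence is chr17:2304522-2304821, minus strand, upstream of the gene. Capitals mark CACGTG.
MXD1 summit: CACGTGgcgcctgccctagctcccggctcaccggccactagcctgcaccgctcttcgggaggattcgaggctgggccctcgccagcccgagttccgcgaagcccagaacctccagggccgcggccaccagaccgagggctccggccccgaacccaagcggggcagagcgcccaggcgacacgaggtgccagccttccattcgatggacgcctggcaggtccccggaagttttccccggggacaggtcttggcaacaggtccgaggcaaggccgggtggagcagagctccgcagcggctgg
MNT upstream summit: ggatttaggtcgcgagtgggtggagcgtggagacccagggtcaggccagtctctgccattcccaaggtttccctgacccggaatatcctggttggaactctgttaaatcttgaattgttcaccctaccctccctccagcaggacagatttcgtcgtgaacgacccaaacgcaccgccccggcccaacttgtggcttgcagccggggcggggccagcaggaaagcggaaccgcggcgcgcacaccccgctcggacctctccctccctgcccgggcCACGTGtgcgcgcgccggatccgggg

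The MYCN promoter is shown because it carried no peak. Its 200 bases upstream of the canonical TSS, GRCh37 chr2:16080472-16080671, plus strand, have a GC content of 56.0%, and capitals mark GGGCGG on either strand.
MYCN upstream: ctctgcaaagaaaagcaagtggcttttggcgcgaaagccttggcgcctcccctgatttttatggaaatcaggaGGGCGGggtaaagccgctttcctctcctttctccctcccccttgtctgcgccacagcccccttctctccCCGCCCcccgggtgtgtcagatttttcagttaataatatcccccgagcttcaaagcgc

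**Figure D1:**
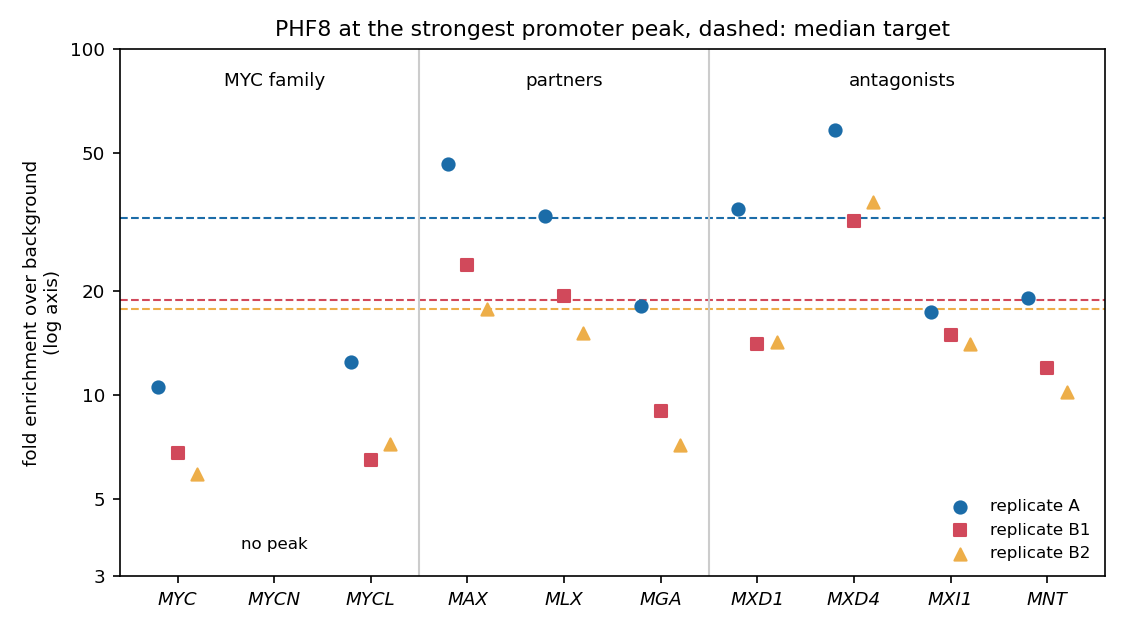
Fold enrichment of the strongest promoter peak of each network gene on a log axis, by replicate (A circles, B1 squares, B2 triangles), with dashed lines at the median bound gene of each replicate (32.4, 18.8 and 17.7). MYC, MYCL, MXI1, MNT and MGA lie below the line of their own replicate in all 3 replicates, MXD4 lies above it in all 3, and MYCN has no peak.

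MYC, the proto-oncogene on chr8:128747680-128755197, had a fold enrichment of 10.5, 6.82 and 5.91 in A, B1 and B2 at its strongest promoter peak. These peaks rested on 26, 19 and 17 fragments, whose 95% exact Poisson intervals were 17.0 to 38.1, 11.4 to 29.7 and 9.90 to 27.2. All 3 replicates placed MYC near the bottom of the bound genes, at a percentile of 5.48 ± 1.03 (SD, n = 3). On the log2 scale it lay at −1.56 ± 0.086 (SD) relative to the median bound gene. In limma's test of all 16541 bound genes against the median of their replicate, this was below the median with a Benjamini-Hochberg adjusted p of 0.000112. The A value behind this percentile, SD and p came from a peak that B1 and B2 lack. They therefore join different sites, and their spread is not that of the shared region, where A reached 8.18. The same test put 33.7% of bound genes below and 31.2% above the median, so passing it is common.

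The MYC locus held 4 separate peak regions, but only 1 was present in all replicates. That shared region, chr8:128747990-128748476, reached 8.18, 6.82 and 5.91 in A, B1 and B2, and its median summit lay at −59 bp from the nearest annotated start site and at −244 bp from the canonical one, where a minus sign means upstream. The highest peak of A, at 10.5, lay 1665 bp downstream of the canonical start site (chr8:128749997-128750329), near an internal start site, and had no counterpart in B1 or B2. A further region just downstream of the canonical start site, with a summit at 148 bp, reached 7.01 in A and 4.77 in B1. The remaining one, at 7.40 in A alone, lay at −1094 bp. Both regions seen in A alone also fell within 1 kb of a start site of the lncRNA gene CASC11. MYC binding was thus weak in every library, and its position was shared for 1 of 4 regions.

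MYCN, the neural relative of MYC on chr2:16080672-16087129, had no peak at any of its 3 start sites in any replicate. The nearest peak in A lay 348525 bp away on the upstream side, in the promoter of DDX1, with a fold enrichment of 43.2, and B2 had the same neighbour at 348547 bp and 21.0. In B1 the nearest was a weak peak of 9 fragments (3.41) 129283 bp downstream, in the promoter of the noncoding gene GACAT3. Since the weakest listed peaks held 8 to 10 fragments, binding below that level was not detectable at this depth. The MYCN start site region was CpG-island-like, with a GC content of 63.9% and 0.71 times the CpG count that its base composition predicts. Among protein-coding genes with such a start site, 17.8% likewise had no peak in any replicate.

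MYCL, the remaining family member, on chr1:40361100-40367928, had 1 peak region, present in all replicates (chr1:40367272-40367679). Its fold enrichment was 12.5, 6.48 and 7.23 in A, B1 and B2, with 31, 18 and 21 fragments. The median summit was 159 bp downstream of the canonical start site, and the summits of the replicates spread over 30 bp. MYCL stood at a percentile of 7.45 ± 1.64 and at −1.40 ± 0.12 on the relative log2 scale (SD, n = 3; limma adjusted p = 0.000134, below the median). MYC and MYCL differed by 0.15 ± 0.20 (SD) on that scale, which was less than the spread between replicates. Both detectable MYC-family promoters were therefore at the low end of PHF8 strength, as the plot of fold enrichment by gene shows.

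MAX, the obligate partner of the MYC proteins, on chr14:65472892-65569413, was the stronger side of the network. Its strongest peak reached 46.4, 23.7 and 17.7 in A, B1 and B2, with 119, 73 and 64 fragments (95% intervals 98.6 to 142, 57.2 to 91.8 and 49.3 to 81.7). The percentiles were 81.7, 69.4 and 49.5, so MAX was above the median bound gene in A and B1 and at it in B2. Its relative log2 strength of 0.28 ± 0.26 (SD, n = 3) did not pass limma's test (adjusted p = 0.0870), and without B2 it did at an adjusted p of 0.0481, with a value of 0.44. All 14 of its annotated start sites had a peak in all replicates, but they lie close together, with a promoter window of 3011 bp in all.

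The MAX promoter carried 2 separate regions in every replicate. The region over the start site (chr14:65568736-65569310, summit at 117 bp) was 1.97 times as enriched as the upstream one (chr14:65569523-65570113, summit at −505 bp), with ratios of 2.13, 1.88 and 1.90. The upstream region alone reached 21.8, 12.6 and 9.33 in A, B1 and B2. The direction was the same in 3 of 3 replicates, and with 3 replicates the exact permutation test of sign flips (two-sided) gave 0.25, the smallest p it allows.

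MLX, the MAX-like partner of MondoA and ChREBP, on chr17:40719090-40725257, had 1 region over its start sites (chr17:40718790-40719766). The fold enrichment was 32.9, 19.3 and 15.1 in A, B1 and B2, from 98, 58 and 47 fragments. It lay at the middle of the bound genes, with percentiles of 51.1, 52.1 and 38.9 and a relative log2 strength of −0.056 ± 0.15 (SD, n = 3; limma adjusted p = 0.660). MLX had the tightest summit of all shared network regions, with 11 bp between the replicates, at 133 bp downstream of the canonical start site.

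MGA, the dual-specificity T-box and zipper protein, on chr15:41913332-42065279, had weak but repeated binding at 2 distant promoters. The stronger value came from its first promoter (chr15:41913170-41914324), with 18.0, 9.01 and 7.18 in A, B1 and B2. Its percentile was 12.9 ± 4.61 and its relative log2 strength −1.07 ± 0.23 (SD, n = 3; limma adjusted p = 0.000458, below the median). The region was broad, since its peaks of 1032 to 1155 bp were as wide as or wider than 87.9% to 92.0% of peaks in their lists, and the summits of the replicates lay 447 bp apart. The lncRNA gene ENSG00000260926 shares this region.

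That summit lay at −38764 bp from the canonical MGA start site, whose own promoter carried the second region (chr15:41952604-41953191) at 9.51, 8.48 and 7.08 in A, B1 and B2. The first promoter exceeded it 1.90 times in A, but only 1.06 times in B1 and 1.01 times in B2. Farther into the gene and outside all promoter windows, a peak reached 15.3 in A (chr15:41953814-41954105) and 6.22 in B1, and another was present in all 3 replicates at 6.44, 4.76 and 4.56. In A, the intronic peak at 15.3 was thus higher than the peak of the canonical promoter.

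MXD4, an antagonist that pairs with MAX and recruits SIN3, on chr4:2249159-2263836, was the most strongly bound gene of the network. Its strongest peak reached 58.4, 31.7 and 36.1 in A, B1 and B2, resting on 149, 92 and 109 fragments (95% intervals 126 to 175, 74.2 to 113 and 89.5 to 131). Every replicate placed it near the top of the bound genes, at a percentile of 94.5 ± 3.46. Its relative log2 strength of 0.88 ± 0.14 (SD, n = 3) was above the median with a limma adjusted p of 0.000569. It was the 1 member above the median in this test, beside 31.2% of all bound genes.

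The MXD4 summit was displaced from the start site. The strongest region (chr4:2264165-2264735, the sequence shown above) had its summit at −573 bp, with 15 bp between the replicates. A second region over the start site (chr4:2262973-2263990, summit at 150 bp) reached only 26.6, 17.7 and 14.5 in A, B1 and B2. The upstream region was 2.14 times as enriched on average, with ratios of 2.19, 1.79 and 2.50 (exact sign-flip p = 0.25, the smallest possible). Across the 12107 bound protein-coding genes with a shared region, the strongest summit lay more than 500 bp upstream of the nearest start site in 3.66% and within 150 bp of one in 66.5%, with a median position 77 bp downstream. When the peak nearest to a start site stood for the gene, the percentile of MXD4 was 46.6.

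MXD1, the antagonist induced in differentiation, on chr2:70124820-70170077, shared this displaced position without a clear winner. Its strongest peak reached 34.5, 14.1 and 14.3 in A, B1 and B2, a percentile of 40.4 ± 12.7 and a relative log2 strength of −0.21 ± 0.27 (SD, n = 3; limma adjusted p = 0.183). The region with a summit at −606 bp from the nearest start site (chr2:70141296-70141758, shown above) held 34.5, 12.3 and 14.3, and the region over the start site (chr2:70142180-70142533) held 26.3, 14.1 and 9.13. The upstream region was the higher in A and B2 and the lower in B1, a mean ratio of 1.21 that was within the spread. With 1 TSS per gene, the 5′ end of the gene, MXD1 was not bound. That end lies at chr2:70124820, far upstream of the canonical start site at chr2:70142241 and of both regions. Without A, where MXD1 was strongest relative to other genes, it fell below the median with a limma adjusted p of 0.0136.

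MXI1, a further MAX-binding antagonist, on chr10:111967363-112047123, was bound mainly at an internal promoter. The strongest region (chr10:111985673-111986179) lay 18593 bp downstream of the canonical start site and at −6 bp from an annotated alternative one, and reached 17.4, 14.9 and 14.1 in A, B1 and B2. The region at the canonical start site was present at 14.0 in A and 6.48 in B1 and was not called in B2. A further zone 2933 bp into the gene reached 12.6, 6.48 and 7.89. The percentile of MXI1 was 28.1 ± 10.3 and its relative log2 strength −0.52 ± 0.32 (SD, n = 3; limma adjusted p = 0.0155, below the median). In all, 8 regions met its 37 start sites, of which 3 were shared by all replicates, and the region at the canonical start site is also within 1 kb of a start site of the lncRNA gene ENSG00000228417. With 1 TSS per gene, the 5′ end of the gene, the mean fold enrichment of MXI1 was 8.00 in place of 15.4. The B2 value in that mean, 3.51, came from a separate peak 979 bp downstream of the canonical start site, seen in B2 alone.

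MNT, the broadly expressed antagonist, on chr17:2287367-2304398, had the most scattered binding. Its strongest peak reached 19.1, 11.9 and 10.2 in A, B1 and B2, a percentile of 20.1 ± 2.17 and a relative log2 strength of −0.74 ± 0.077 (SD, n = 3; limma adjusted p = 0.000874, below the median). It had 9 regions, of which 6 were shared by all replicates, whereas 0.033% of bound protein-coding genes had as many as 6 and the median gene had 1. MNT had 4 shared regions when those within 200 bp were joined, and no share over all genes was computed at that setting. Its 9 start sites gave a promoter window of 10677 bp in all, and 22.3% of bound protein-coding genes had a window at least as long.

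Among the MNT regions, the upstream one (chr17:2304482-2304870, summit at −317 bp from the canonical start site, shown above) and an intronic one 7357 bp into the gene (chr17:2296196-2297155) were nearly equal. They held 19.1, 11.9 and 9.86 against 17.1, 10.9 and 10.2, a mean ratio of 1.06 with the upstream region higher in A and B1 and lower in B2. The region directly over the start site was weaker, at 12.9, 5.80 and 4.93 in A, B1 and B2. PHF8 signal at MNT was therefore spread over several weak regions rather than gathered in 1 strong one.

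**Figure D2:**
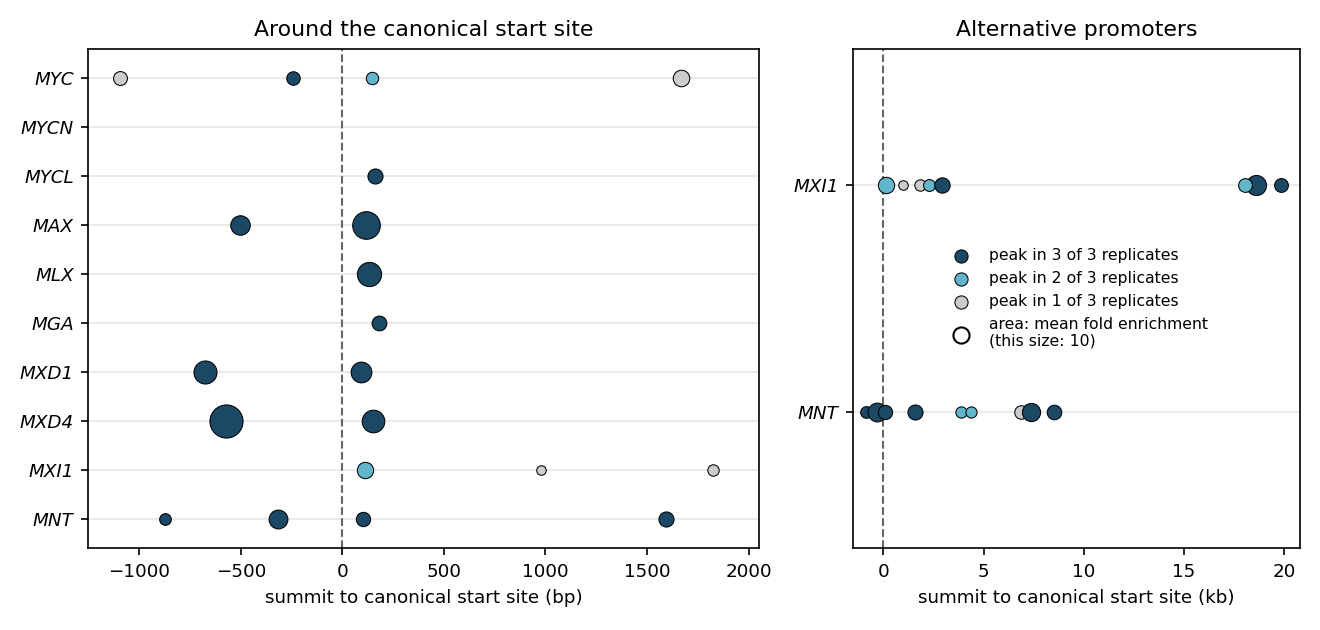
Position of every peak region of the network genes relative to the canonical start site, on the left near that site and on the right along MXI1 and MNT. Darker circles were present in more replicates and the circle area is proportional to the mean fold enrichment; MXD4 and MXD1 have upstream summits at −573 and −674 bp, and the first MGA promoter at −38764 bp lies outside the range.

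The network as a whole had 31 regions, of which 20 were shared by all 3 replicates and 5 were present in 1 replicate. All 5 of those belonged to MYC, MXI1 and MNT. Ordered by relative strength, the genes ran MXD4, MAX, MLX, MXD1, MXI1, MNT, MGA, MYCL and MYC. MXD4 exceeded MAX by 0.59 ± 0.38 on the log2 scale, MAX exceeded MLX by 0.34 ± 0.14 and MNT exceeded MGA by 0.33 ± 0.22 (SD, n = 3), each in 3 of 3 replicates. The other 5 neighbouring pairs differed in at most 2 of 3 replicates in the same direction. In limma's test, 1 of the 9 was above the median, beside 31.2% of all bound genes. Below it were 5 (MYC, MYCL, MGA, MNT and MXI1), beside 33.7%, and 3 passed in neither direction (MAX, MLX and MXD1).

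**Figure D3:**
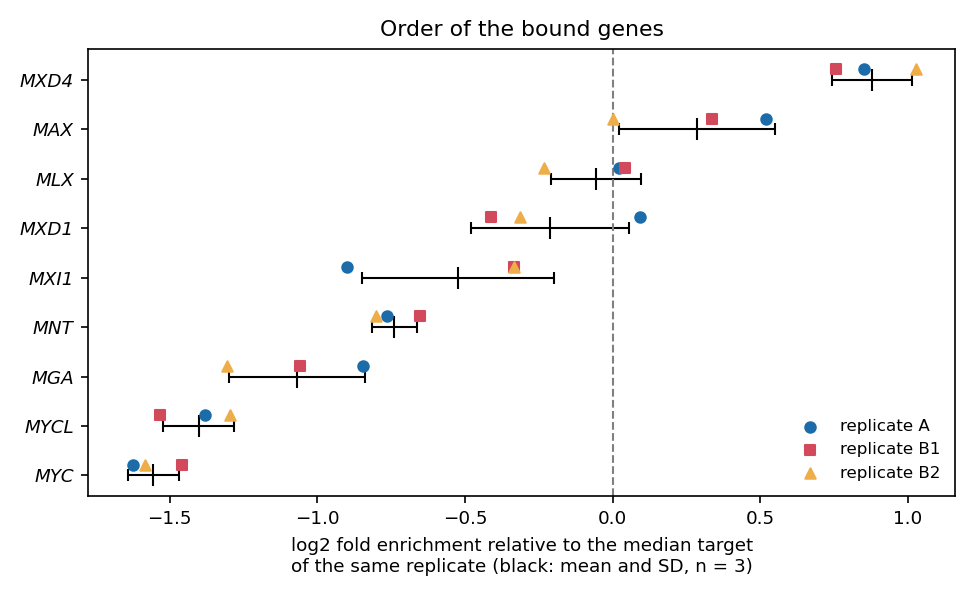
Log2 fold enrichment of the strongest promoter peak relative to the median bound gene of the same replicate, with coloured points for A, B1 and B2 and black bars for the mean and SD of the 3 replicates. MXD4 lies at 0.88 above the dashed line of the median bound gene, and MYC and MYCL lie at −1.56 and −1.40.

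Of 11458 strongest shared regions over all bound genes, coding and noncoding, 5.56% held the E-box CACGTG within 150 bp of the summit. This motif, which reads the same on both strands, lay in that window at 3 of the 9 bound network genes, MXD1, MNT and MGA. This number depended on the width searched. Within 100 bp the count was 0 (2.89% of all regions), within 250 bp it was 5 (12.1%) and in the whole merged region it was also 5 (18.9%), namely MAX, MXD1, MNT, MLX and MGA. Over all 20 shared regions of the network, 7 held at least 1 E-box, beside 17.6% of 14881 shared promoter regions, although the network regions were narrower, with a median width of 550 bp against 804 bp. Measured from the middle of the motif, the E-boxes lay 98 to 424 bp from the median summit of their region, and a motif was counted within a window when all of its bases were inside, which the nearest, at MGA, was not for 100 bp. MYC, MYCL, MXD4 and MXI1 had none in their shared regions.

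The E-boxes outside the sequences given above are shown with 12 bases on either side, in the strand of the gene and with CACGTG in capitals. They are at chr14:65569567-65569596 and chr14:65569968-65569997 upstream of MAX, at chr17:2303922-2303951 in a coding exon of MNT, at chr17:40719056-40719085 upstream of MLX, and at chr15:41913923-41913952 and chr15:41914249-41914278 in intronic sequence of MGA.
MAX upstream, near: tccagctccctcCACGTGtcctgtcttccc
MAX upstream, far: acgctggagcctCACGTGagtagctgagta
MNT coding exon: aacaacagagagCACGTGgtgagcggccgg
MLX upstream: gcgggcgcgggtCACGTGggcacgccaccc
MGA near: gcgctgaggcgtCACGTGgacgccacagcc
MGA far: ggcgtggcgggtCACGTGccttcgactgcg
The remaining E-boxes, 1 at MAX and 1 at MGA, overlap or adjoin transcribed untranslated sequence and are not printed.

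Other motifs were searched on both strands within the same 150 bp. GGGCGG was present at 7 of 9 (66.7% of all regions), CCAAT at MYCL and MGA (13.8%), CACGCG at MLX and MGA (17.3%) and TATAAA at MYC alone (1.93%). The E2F-type sequences TTTGGCGC and TTTCCCGC were at 0 of 9 (2.66%), and the T-box sequence TCACACCT was at 0 of 9 (0.567%). GC content in these windows ran from 64.1% at MAX to 77.1% at MYCL, with a median of 69.1% over all regions. A match says only that these letters are in the window, and no factor other than PHF8 was measured.

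Genes that act with or under the network were mostly bound, and their lists are read beside the shares of 60.2% and 79.5% given above. All 21 cofactors and turnover factors of MYC were bound, with a median percentile of 69.5 beside 50.9 for all bound genes. The corepressor SIN3B was the strongest (65.8, 39.1 and 46.3 in A, B1 and B2, percentile 98.8), followed by the chromatin ATPase RUVBL1 (55.9, 36.5 and 36.8, percentile 95.9). SIN3A, the other SIN3 corepressor, was weaker at 26.1, 9.85 and 10.7 (percentile 23.2), and the kinase PIM1 was the weakest of the list at a percentile of 11.1. The ubiquitin ligase subunit FBXW7, which marks MYC for degradation, stood at 72.0, and its opponent USP28 at 70.6.

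Of the other MAX and MLX partners, MLXIP, which encodes MondoA, was strongly bound at 45.4, 45.9 and 42.2 in A, B1 and B2 (percentile 92.7 ± 11.4). MXD3, the remaining MXD antagonist, reached 18.7, 13.8 and 12.0 (percentile 24.7 ± 5.76). MLXIPL, which encodes ChREBP, had no peak in any replicate although it has a CpG-island-like start site, as was also seen at MYCN. Both MondoA-MLX targets were bound, with the thioredoxin inhibitor TXNIP at a percentile of 35.8 and ARRDC4 at 4.62.

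Partners of MGA in its Polycomb complex were bound in 8 of 8 cases, with a median percentile of 50.5. They ran from RNF2, its ubiquitin ligase, at 17.5, 8.73 and 6.81 (percentile 11.8) to YAF2 at 52.2, 30.5 and 24.0 (percentile 84.4). RNF2 and MGA were thus both near the weak end, and PCGF6, the subunit that defines the complex, was at the middle (percentile 50.2).

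Textbook MYC target genes were bound in 21 of 22 cases, with a median percentile of 59.8. The nucleolar protein NCL (50.5, 36.7 and 31.7 in A, B1 and B2, percentile 92.3) and the polyamine enzyme SRM (percentile 90.8) were the strongest of the list, with the transferrin receptor TFRC at 88.1. TERT, the telomerase catalytic subunit, was at 9.78, 7.65 and 4.49 (percentile 4.94), and CCND2, a cyclin of G1 phase, had no peak in any replicate. Strength within this list thus covered almost the same range as within the network itself. At the MYC locus, the neighbouring noncoding gene PVT1 was bound at 26.5, 16.7 and 14.7 (percentile 37.9 ± 3.59), higher than MYC in 3 of 3 replicates. LRATD2 on the other side of MYC reached 27.0 in A and 7.88 in B1 and was also bound in B2, while POU5F1B and GSDMC had no peak and CASC11 had one in A alone.

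**Figure D4:**
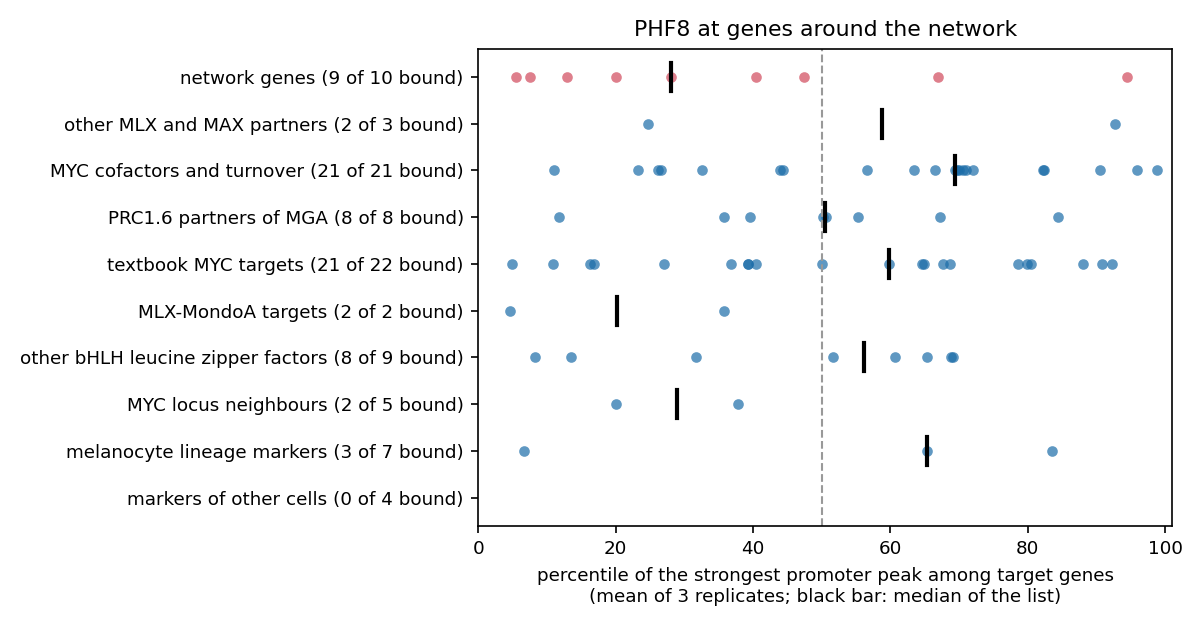
Percentile of the strongest promoter peak among bound genes, mean of 3 replicates, 1 point for each bound gene, with a black bar at the median of each list and the number bound beside its name. Network genes (red, median 28.1) reach from 5.48 to 94.5, and MYC cofactors have a median of 69.5.

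The genes closest to MYC in fold enrichment over the 3 replicates, among 12138 other bound protein-coding genes and measured as the Euclidean distance of log2 values, were SH3BGRL (distance 0.052), PDGFRB (0.071) and PKDCC (0.078). SH3BGRL, for example, held 10.9, 6.82 and 5.91 in A, B1 and B2. Closest to MXD4 were ZDHHC13 (0.021), PPP5C (0.034) and PMS1 (0.056), the first with 58.8, 32.1 and 35.9. With 3 points for each gene, such a likeness describes similar levels only.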

How the data were processed

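PHF8 ChIP-seq peak lists of 3 replicates of SKMEL-147 cells were used. The authors aligned reads to hg19 with Bowtie2, and called narrow peaks with MACS for each replicate against input; the submitters' processing notes also name bcl2fastq and Picard. The treatment of duplicates, read totals and the MACS version are not given in the sources used here. The deposited fold enrichment is the linear ratio at the summit between ChIP and local background, and the p-value and q-value were deposited by the authors as −log10 values. The deposited score is a rescaled q-value and entered no result. The q-value of every peak was at most 0.0482. Summit fragments were recovered as the whole number that gives both the deposited fold enrichment and p-value (100% of peaks within a tolerance of 0.001), and their 95% exact Poisson intervals cover counting error only, since amplification is not corrected.

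TSSs came from GENCODE release 44 lifted to GRCh37, the build of the files, which also gave the sequences. Start sites were CpG-island-like where the 250 bp on either side reached a GC share of 0.5 and 0.6 times the CpG count predicted from base composition. Regions were peaks merged over replicates by an overlap of at least 1 bp. limma 3.58.1 in R 4.3.3 fitted log2 fold enrichment minus the replicate median over all bound genes, with Benjamini-Hochberg adjustment over all of them and a threshold of 0.05. Its trial on simulated data used independent noise of a common spread and few shifted genes. These data differ from that setting, so the trial does not vouch for the calls made here. Python 3.11.15, pandas 2.3.3, scipy 1.17.1 and pysam 0.24.0 did the rest. The network genes and all gene lists were chosen with earlier results of these data known, and the genes named are all network genes, the genes sharing their peaks, members of those lists and the 3 genes closest to MYC and MXD4. DDX1 and GACAT3, at the peaks nearest to MYCN, were named after their values were seen. Of the listed symbols, FAM84B and PECAM1 were not matched in the annotation.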

Additional observations from a re-analysis of the deposited data

How the results depend on the processing

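The count of 9 bound network genes stayed at 9 in all alternatives but 2: it was 6 at a fold enrichment above 10, which left out MYC, MYCL and MGA (49.6% of protein-coding genes), and 8 with 1 TSS per gene, which left out MXD1 (54.0%). The median percentile was 19.5 when the peak nearest to a TSS replaced the strongest and 16.1 with 1 TSS per gene. For MXD4, the peak nearest to a TSS stood at a percentile of 46.6, against 94.5 for the strongest. By peak width in place of strength, MGA stood at 80.1 and MXD4 at 32.3. The number of genes above the median in limma's test ran from 1 to 2 when 1 replicate was left out, with MAX added without B2, and without A the number below was 6, with MXD1 added. The count with an E-box was 0 within 100 bp, 5 within 250 bp, 5 in the whole region and 1 around the summits of B1. The shared regions numbered 17 to 26, and MNT had 4 when regions within 200 bp were joined. None of the genes past the threshold of limma's test changed sign in its alternatives. MLX, which did not pass it, went from −0.056 to 0.045 on the relative log2 scale without B2. With TSSs of protein-coding transcripts only, the summit went from −48 to 133 bp from the nearest TSS for MLX and from −6 to 114 bp for MXI1. Of the results for single genes, 86 stayed within their spread and 12 moved. The 86 do not measure stability, because part of them could not move. Leaving out 1 of 3 replicates cannot shift a mean fold enrichment by its SD, and the median summit is itself the summit of 1 replicate. The causes of the changes were not tested. No paired analysis was possible because 1 group of libraries was analysed, so samples could not be paired across groups, while regions and genes were compared within replicates.

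Precision is limited by summits of 17 to 26 fragments at MYC, by the fragment minimum of the lists at MYCN, and by 3 replicates of which B1 and B2 share a letter.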

Other observations

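Relatives of the network that carry the same basic helix-loop-helix leucine zipper but do not pair with MAX were bound in 8 of 9 cases. The share was 60.2% of all protein-coding genes and 79.5% of those with a CpG-island-like start site, which 7 of the 9 have. Their median percentile was 56.2, beside 50.9 for all bound genes. USF2, an E-box factor present in most cells, stood at 69.1, and its partner USF1 at 31.7 ± 14.2 (SD, n = 3). MITF, the lineage factor of melanocytes, reached 37.6 in A, 20.4 in B1 and 24.6 in B2 (percentile 65.3). Its relatives TFE3 and TFEB were weaker, at percentiles of 8.18 and 13.5, and TFEC had no peak in any replicate. Of the sterol regulators, SREBF2 stood at 68.8 and SREBF1 at 51.7.

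Among melanocyte markers, PMEL was at a percentile of 83.6 and SOX10 at 6.61, while MLANA, TYR, TYRP1 and DCT had no peak in any replicate.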
